A study of Mus musculus with 6 samples.

Results

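The genes described here encode the phase II conjugation enzymes of mouse liver, chosen as protein-coding genes whose symbols begin with Gsta, Gstm, Gstp, Gstt, Gsto, Gstk, Gstz, Mgst, Ugt1, Ugt2, Ugt3 or Sult. They numbered 67 of the 45706 genes in the count table. The glutathione family (Gst and Mgst symbols) held 25 genes, the glucuronic acid family (Ugt) 21 and the sulfate family (Sult) 21. A further 8 pseudogenes with the same prefixes were left out.

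Poly(A)-enriched liver RNA was sequenced from 3 samples labelled Entpd8 knockout (KO 1 to KO 3) and 3 labelled wild type (WT 1 to WT 3). Entpd8 encodes NTPDase8, an ectonucleotidase of hepatocyte canalicular membranes, and the series asks what it does in liver ischemia. The labels state that the mice were kept free of specific pathogens, but not the allele, strain, sex, age or sampling time, nor whether these livers had been ischemic. Nothing in them ties the 3 libraries of a genotype to 3 different animals, so the p-values below measure the spread between these samples, which may be technical.

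Phase II enzymes attach a polar group to drugs, hormones, bile pigments and reactive products of metabolism, which can then leave the cell through efflux transporters. Glutathione S-transferases use glutathione, UDP-glucuronosyltransferases use UDP-glucuronic acid, and sulfotransferases use the activated sulfate PAPS. In rodent liver many of their genes are under the control of Nrf2, the aryl hydrocarbon receptor and the nuclear receptors CAR and PXR, and several differ between the sexes.

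Library totals ran from 40800058 to 46473531 estimated counts in KO and from 32768774 to 39929978 in WT. Entpd8 itself had 15, 29 and 52 counts in KO 1, KO 2 and KO 3, against 1416, 876 and 2034 in WT 1, WT 2 and WT 3 (log2 fold change -5.72 ± 0.48 (SE), adjusted p = 0.00151, edgeR). The share of counts from mitochondrially encoded genes was 10.1% to 11.7% in KO and 6.52% to 8.34% in WT, without overlap. Hepatocyte markers were abundant in both groups, and 0 of 6 were called different by edgeR, DESeq2 or limma voom, nor was any below an unadjusted p of 0.05. Xist, the X-inactivation transcript of female cells, had 1 to 2 counts in KO and 2 to 6 in WT, while Y-linked Ddx3y had 3481 to 4527 counts in KO and 2881 to 3887 in WT.

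Many conjugation genes rose in KO and none passed in the other direction. Of the 47 members with enough counts to test, 24 rose in KO and 0 fell (edgeR quasi-likelihood test, Benjamini-Hochberg adjusted p under 0.05 over all 14069 genes tested). Across all genes tested 20.4% passed, 9.8% higher and 10.6% lower. At an unadjusted p under 0.05, 3 members were lower in KO. Among all members DESeq2 called 29 higher and 1 lower, beside 13.5% and 12.3% of all genes. Limma voom called 25 higher and 0 lower, beside 9.91% and 9.99% of all genes. By family, 14 of 22 tested genes of the glutathione family rose, 7 of 17 of the glucuronic acid family and 3 of 8 of the sulfate family. The median log2 fold change was 0.82 in the glutathione family, 0.48 in the glucuronic acid family and 0.78 in the sulfate family, beside -0.02 over all genes tested. The difference between the families was not tested.

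Without KO 1, 7, 0 and 1 members of the glutathione, glucuronic acid and sulfate families rose, and 2.68% of all genes rose and 1.52% fell. Scaling moved the split of calls in the glucuronic acid family. It was 7 higher and 1 lower under upper-quartile factors (8.44% and 12.4% of all genes) and 5 higher and 2 lower with library totals alone (7.36% and 11.2%). In bulk RNA, fewer cells of a type and less RNA per cell cannot be told apart.

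The values of single libraries show the same sorting. All 3 KO libraries lay above all 3 WT libraries in CPM (counts scaled to a common library total with TMM factors) for 18 of 22 tested glutathione genes, 8 of 17 glucuronic acid genes and 4 of 8 sulfate genes. This order held for 18.7% of all genes tested. The opposite order, with KO below WT, held for 0 glutathione genes, 3 glucuronic acid genes (Ugt1a9, Ugt2b37 and Ugt2b38) and 0 sulfate genes, and for 22% of all genes.

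**Figure D1:**
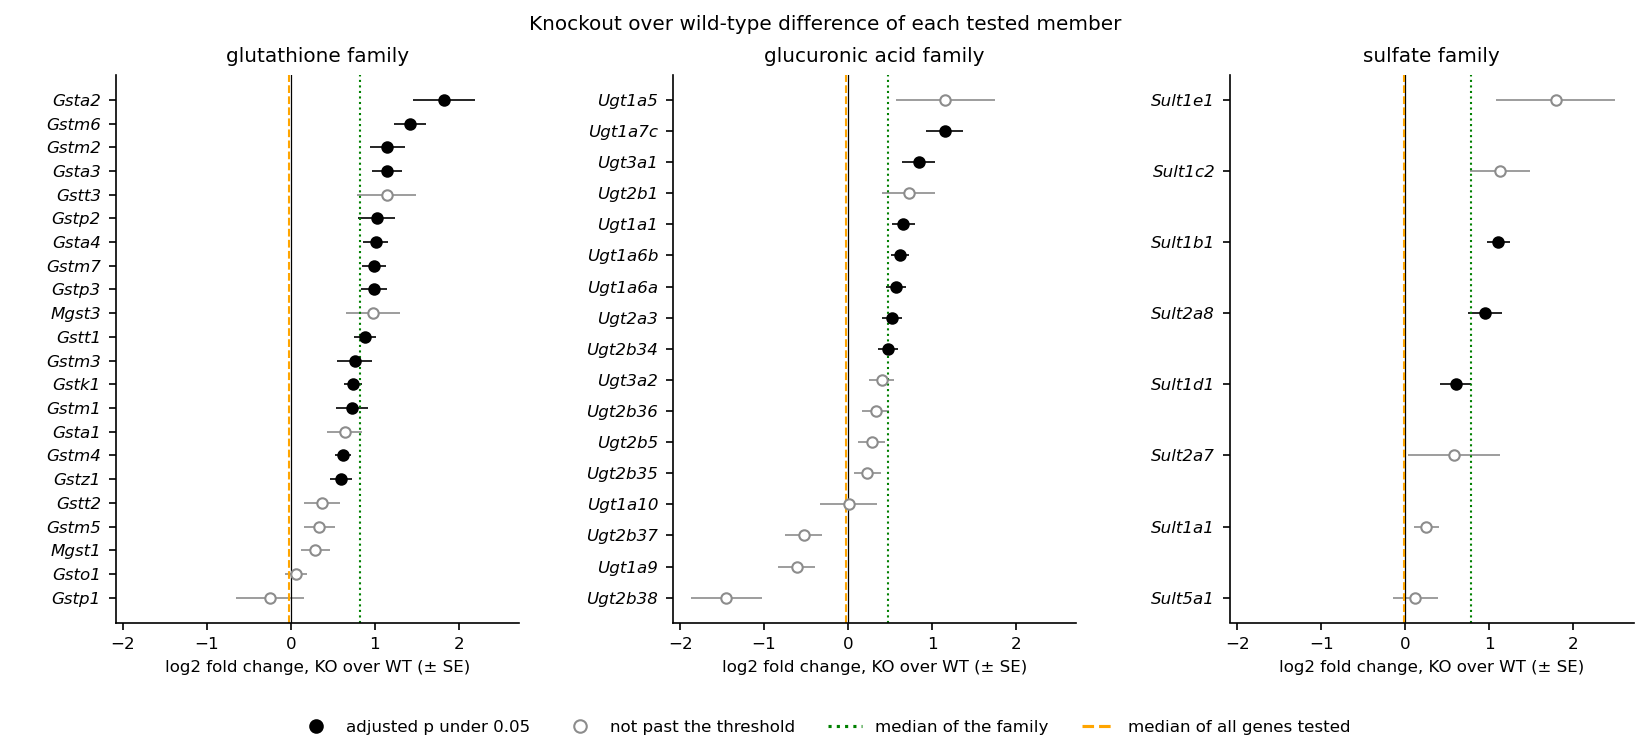
Log2 fold change of each tested member, KO over WT, with its standard error, in 3 panels by family, with the family median dotted and the median of all genes dashed. Filled points passed an adjusted p of 0.05, and all 24 of them lie to the right of 0.

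Level and transcript length differed between the families and moved with the fold change across the genome. Among genes averaging at least 100 TPM (counts scaled per length, then to a common total), 21.6% of 983 rose in KO and 3.97% fell. Of the 17 members at that level, 10 rose and 0 fell. They were 8 glutathione, 7 glucuronic acid and 2 sulfate genes, of which 6, 3 and 1 rose. The longest coding transcript had a median length of 1136 bases in the glutathione family, 2244 in the glucuronic acid family and 1994 in the sulfate family. Genes of 1000 to under 1500 bases had a median log2 fold change of 0.12 and 12.2% rose. For genes of 1500 to under 2500 bases, where the glucuronic acid and sulfate medians lie, these were 0.04 and 12.3%. For genes of 4000 bases and over they were -0.14 and 7.95%. With this length trend removed from each library, 12, 7 and 3 members of the glutathione, glucuronic acid and sulfate families rose, beside 10.5% of all genes higher and 9.17% lower, an alternative chosen after seeing the data.

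Sequence motifs for 2 of the regulators named above were sought in the promoters of the members, Nrf2 and the aryl hydrocarbon receptor, whose transcripts Nfe2l2 and Ahr both rose in KO. RefSeq (GRCm38.p6) gave 71 promoter windows for 59 of the 67 members, each from 250 bases before to 50 after a transcription start. The core of the antioxidant response element, the Nrf2 site TGACNNNGC, was searched on both strands. Only these letters were searched, so a window without a match can still hold an Nrf2 site of other letters. The Gstp1 and Gstp2 windows, with 0 matches, hold tgagtcagc, which has g where the pattern has C. The pattern was found in 4 of 71 member windows (5.63%) and in 12.4% of all 32851 windows. All 4 belong to the glutathione family, where they are 12.5% of 32 windows. They are shown because they cover both outcomes, with Gsta3 and Gstm7 among the genes that rose and Gstm5 and Mgst1 among those not called. Capitals mark the match, which begins at position -121 from the start in Gsta3, -129 in Gstm7, -42 in Gstm5 and -56 in Mgst1. The windows are chr1:21240335-21240634 (plus strand), chr3:107931565-107931864 (minus strand), chr3:107895604-107895903 (plus strand) and chr6:138140277-138140576 (plus strand), in the order Gsta3, Gstm7, Gstm5, Mgst1. Gstm7 and Mgst1 each have another window, from a different start, with 0 matches. In both genes the marked match lies inside the gene as annotated in GENCODE M21.
Gsta3: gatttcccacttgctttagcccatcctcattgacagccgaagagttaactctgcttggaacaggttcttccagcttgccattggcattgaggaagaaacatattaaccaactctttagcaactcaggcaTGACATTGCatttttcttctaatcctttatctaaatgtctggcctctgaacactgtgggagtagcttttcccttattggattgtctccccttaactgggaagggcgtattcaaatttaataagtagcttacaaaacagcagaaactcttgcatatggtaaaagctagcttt
Gstm7: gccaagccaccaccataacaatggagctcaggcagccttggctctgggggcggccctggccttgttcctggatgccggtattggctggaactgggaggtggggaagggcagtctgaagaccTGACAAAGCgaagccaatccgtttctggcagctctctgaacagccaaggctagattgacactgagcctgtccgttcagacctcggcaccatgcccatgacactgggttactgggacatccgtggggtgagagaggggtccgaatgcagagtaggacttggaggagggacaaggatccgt
Gstm5: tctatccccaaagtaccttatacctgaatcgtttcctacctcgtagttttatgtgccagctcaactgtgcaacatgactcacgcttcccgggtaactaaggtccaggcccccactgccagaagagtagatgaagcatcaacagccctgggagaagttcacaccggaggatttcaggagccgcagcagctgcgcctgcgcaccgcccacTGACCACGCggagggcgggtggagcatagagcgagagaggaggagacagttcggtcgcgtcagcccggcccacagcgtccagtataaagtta
Mgst1: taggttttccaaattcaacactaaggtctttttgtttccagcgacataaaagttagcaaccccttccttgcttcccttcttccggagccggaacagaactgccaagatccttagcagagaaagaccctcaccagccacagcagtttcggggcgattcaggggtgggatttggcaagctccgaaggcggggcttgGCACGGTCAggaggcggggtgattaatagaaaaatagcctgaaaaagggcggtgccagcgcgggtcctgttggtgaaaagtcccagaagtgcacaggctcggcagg

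The core xenobiotic response element GCGTG, bound by the aryl hydrocarbon receptor and also sought on both strands, was present in 19.7% of member windows and 32.4% of all windows. By family it lay in 25% of 32 glutathione, 10.5% of 19 glucuronic acid and 20% of 20 sulfate windows.

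Among the glutathione S-transferases, the alpha class included the most abundant gene that rose. Gsta3, whose product in mice conjugates the aflatoxin epoxide, had 1180.3, 1204.3 and 1336.2 CPM in KO 1, KO 2 and KO 3, against 572, 675 and 446 CPM in WT 1, WT 2 and WT 3. Every KO library lay above every WT library, with a log2 fold change of 1.14 ± 0.18 (SE; adjusted p = 0.00736, edgeR). Gsta4, which conjugates the lipid peroxidation product 4-hydroxynonenal, had 54.9, 50.1 and 60.2 CPM in KO and 29.0, 30.8 and 22.0 CPM in WT (1.01 ± 0.15, adjusted p = 0.00598, edgeR).

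Gsta2 had the largest log2 fold change of the tested members, 1.82 ± 0.37 (adjusted p = 0.0174, edgeR), and an uneven KO group. Its values were 45.8, 24.3 and 66.9 CPM in KO, with KO 3 highest, against 16.3, 12.7 and 9.75 CPM in WT. Gsta1 had 35.6, 29.5 and 47.3 CPM in KO against 27.7, 18.2 and 26.1 CPM in WT and was not called (0.64 ± 0.21, adjusted p = 0.0698). Gsta1 and Gsta2 share 56.6% and 44.7% of their 31-base words with other members, so the division of reads between them is uncertain. Taken as a pair they averaged 83.1 ± 30.2 CPM in KO and 37.0 ± 6.66 CPM in WT (SD, n = 3 per group).

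The mu class lies in 1 cluster on chromosome 3 (GRCm38, 107895821 to 108044894), where 6 of 7 genes rose and all 7 had KO above WT. Gstm1, the most abundant, had 948, 881 and 967 CPM in KO, against 439, 710 and 538 CPM in WT (0.73 ± 0.19, adjusted p = 0.0327, edgeR). Gstm6 had 98.5, 107 and 99 CPM in KO and 34.4, 49.8 and 29.8 CPM in WT, with the smallest p of the family (1.42 ± 0.19, adjusted p = 0.00451, edgeR). Its 3 KO values lay close together and far above every WT value. Gstm2, Gstm3, Gstm4 and Gstm7 rose by 1.15, 0.76, 0.62 and 0.99 on the log2 scale. Gstm5, at the cluster's start, had 6.97, 8.10 and 7.40 CPM in KO and 6.89, 4.82 and 6.05 CPM in WT and was not called (0.34 ± 0.18, adjusted p = 0.211). Gstm1 and Gstm3 did not pass with the length trend removed (adjusted p = 0.0603 and 0.0751, edgeR).

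The pi class was split. Gstp1, the most abundant member by TPM, had 1925.4, 2842.7 and 827 CPM in KO, against 1840, 2522.4 and 2293.9 CPM in WT. KO 3 was lowest of the 6 libraries, the other 2 KO libraries lay among or above WT, and the gene was not called (-0.25 ± 0.40, adjusted p = 0.691, edgeR). Without KO 3 its log2 fold change was 0.11. Its neighbour Gstp2 had 24.2, 31.1 and 21.1 CPM in KO and 15.5, 9.28 and 12.8 CPM in WT (1.02 ± 0.22, adjusted p = 0.0171, edgeR). Gstp3 had 10.8, 9.40 and 9.32 CPM in KO and 4.19, 5.41 and 5.30 CPM in WT (0.99 ± 0.16, adjusted p = 0.00844, edgeR). Gstp2 shares 54.8% of its 31-base words with other members, and Gstp3 0.53%. Gstp1 and Gstp2 together averaged 1890.4 ± 1014.2 CPM in KO and 2231.3 ± 344 CPM in WT (SD, n = 3 per group), with overlap, and the division of reads between them is uncertain.

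Single-gene classes with metabolic roles rose as well. Gstk1, found in mitochondria and peroxisomes, had 92.6, 88.1 and 102 CPM in KO and 58.2, 57.3 and 54.4 CPM in WT (0.74 ± 0.11, adjusted p = 0.00589, edgeR). Gstz1, the maleylacetoacetate isomerase of tyrosine breakdown, had 502, 534 and 482 CPM in KO and 365, 328 and 310 CPM in WT (0.60 ± 0.13, adjusted p = 0.0194, edgeR). In the theta class, Gstt1, which acts on small halogenated compounds, had 192, 179 and 225 CPM in KO and 114, 106 and 104 CPM in WT (0.88 ± 0.13, adjusted p = 0.00575, edgeR).

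Gstt3 also had KO above WT, with 84.1, 55.6 and 135 CPM in KO and 52.5, 43.6 and 28.3 CPM in WT, but was not called (1.14 ± 0.35, adjusted p = 0.0574). Mgst1, the abundant microsomal transferase, had 3010.6, 3356.7 and 2792 CPM in KO and 2206.1, 2880.1 and 2399 CPM in WT, with overlap (0.29 ± 0.17, adjusted p = 0.249, edgeR). Mgst3 was not called at an adjusted p of 0.0661, and Gstt2 overlapped between groups. Gsto1, whose product reduces dehydroascorbate, had a log2 fold change of 0.06 ± 0.13, whose sign changed to -0.02 with library totals alone.

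Of the 14 glutathione genes that rose, 7 passed in each of the 6 fits that left out 1 library (Gsta3, Gsta4, Gstk1, Gstm2, Gstm6, Gstm7 and Gstt1). Gsta2, Gstm4, Gstp2 and Gstp3 did not pass without KO 1 (adjusted p = 0.0707, 0.0504, 0.0580 and 0.0548, edgeR). Gstz1 did not pass without KO 1, KO 2 or WT 3 (adjusted p = 0.0979, 0.0610 and 0.0513). Gstm3 did not without KO 1, KO 2, KO 3 or WT 1 (up to 0.116), and Gstm1 passed only without WT 2 (up to 0.124 otherwise). Gstt3 passed without KO 2 (adjusted p = 0.0375) and Mgst3 without WT 1 (0.0222).

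**Figure D2:**
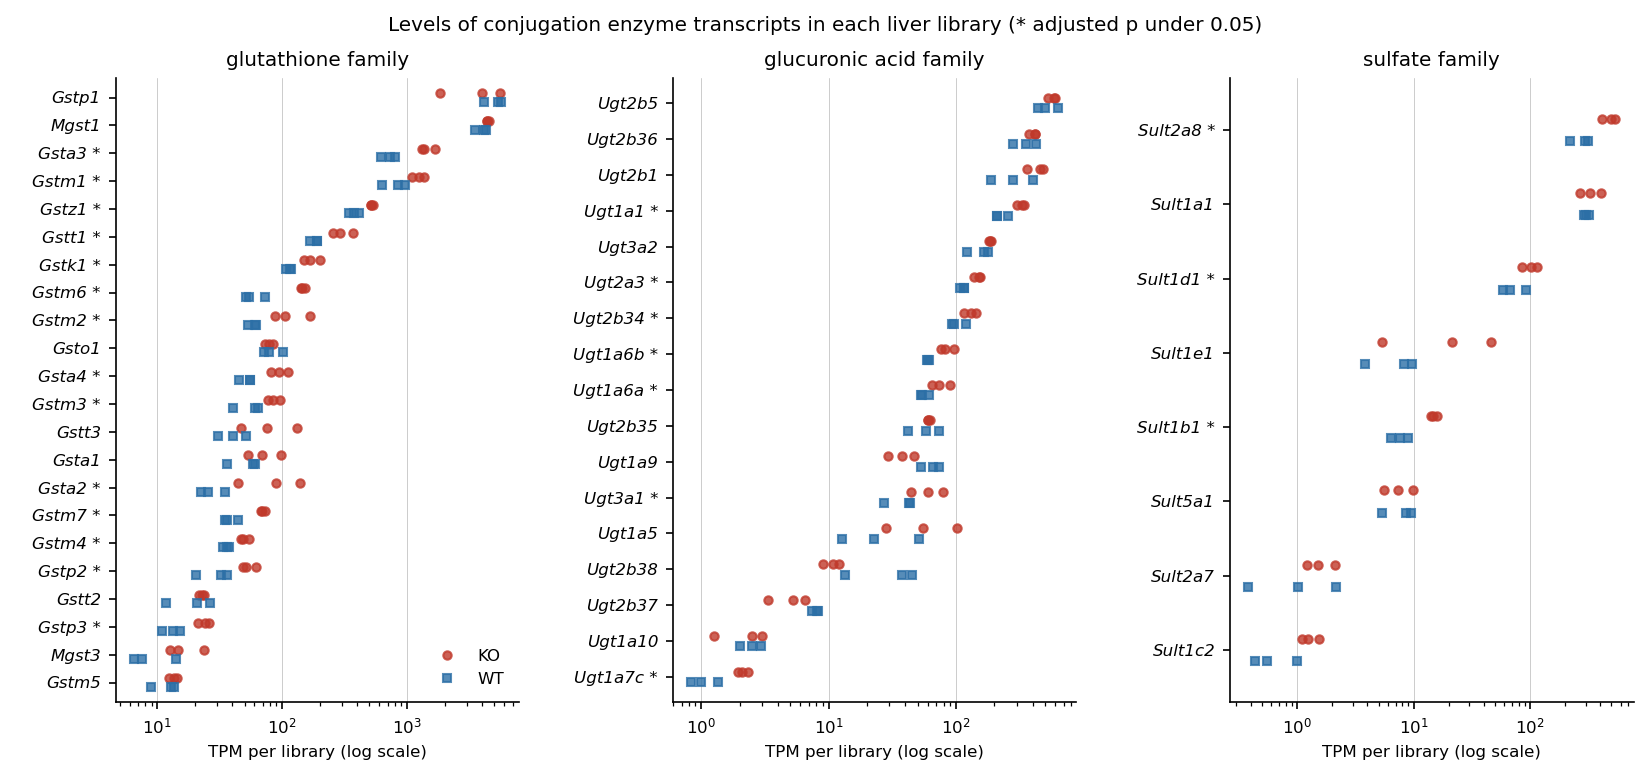
TPM of each tested member in each library on a logarithmic axis, in 3 panels by family, with KO (circles) drawn above WT (squares) in each row and asterisks at an adjusted p under 0.05. Gstp1 and Mgst1 lie far above the other glutathione genes, and the points of Gstp1 overlap between KO and WT.

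The glucuronic acid family was led in level by genes of the Ugt2b group that were not called. Ugt2b5 had 646, 702 and 539 CPM in KO and 497, 472 and 583 CPM in WT (0.28 ± 0.16, adjusted p = 0.242, edgeR). Ugt2b36 and Ugt2b1 likewise overlapped between groups, and Ugt2b1 ranged from 509 to 785 CPM in KO and from 260 to 591 CPM in WT. Without WT 2, the highest WT library, Ugt2b1 passed (1.10, adjusted p = 0.0202, edgeR).

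In the Ugt1 locus on chromosome 1 (88055388 to 88220002), alternative first exons are joined to shared downstream exons, and 4 of 9 genes rose. Ugt1a1, the bilirubin-conjugating enzyme, had 434, 420 and 418 CPM in KO, against 306, 267 and 233 CPM in WT (0.66 ± 0.14, adjusted p = 0.0181, edgeR). Ugt1a6a, which conjugates small phenols, had 99.3, 94.5 and 112 CPM in KO and 65.5, 71.5 and 69.4 CPM in WT (0.57 ± 0.12, adjusted p = 0.0151, edgeR). Ugt1a6b (0.62 ± 0.11) and Ugt1a7c (1.15 ± 0.22) also rose, with no overlap between groups.

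Ugt1a9 went the other way, with 48.9, 64.1 and 35.2 CPM in KO and 86.7, 66.5 and 72.1 CPM in WT, and was not called (-0.61 ± 0.22, adjusted p = 0.0840, edgeR). It passed with library totals alone and without KO 2 (adjusted p = 0.0434 and 0.0373). These 5 genes share 53.0% to 84.2% of their 31-base words with other members, so single values depend on how the authors' method divided reads. Summed, the Ugt1a genes reached 774.9 ± 40.8 CPM in KO and 526.7 ± 67.4 CPM in WT (SD, n = 3 per group), and every KO sum exceeded every WT sum.

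The Ugt2 cluster on chromosome 5 (86889767 to 87490871) had 2 of 10 genes higher. Ugt2a3 had 193, 185 and 176 CPM in KO and 124, 142 and 121 CPM in WT (0.52 ± 0.12, adjusted p = 0.0222, edgeR). Ugt2b34 had 335, 313 and 340 CPM in KO and 224, 231 and 254 CPM in WT (0.48 ± 0.12, adjusted p = 0.0311, edgeR). Neither gene overlapped between the groups. In the same cluster Ugt2b38 had 13.5, 12.9 and 9.42 CPM in KO and 13.6, 48.7 and 35.3 CPM in WT. WT 1 stood next to the KO libraries, and the gene was not called (-1.45 ± 0.42, adjusted p = 0.0520, edgeR). Without WT 1 it fell by 1.82 on the log2 scale (adjusted p = 0.00902, edgeR), and it also passed under 5 other alternatives, among them DESeq2. It shares 52.9% of its 31-base words with other members. Ugt2b37 had KO below WT as well (-0.53 ± 0.22, adjusted p = 0.119).

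Ugt3 enzymes carry the family name but, in human, use other sugars than glucuronic acid. Ugt3a1 had 79.9, 63.0 and 98.3 CPM in KO and 52.5, 35.1 and 47.2 CPM in WT (0.84 ± 0.20, adjusted p = 0.0254, edgeR). The more abundant Ugt3a2 had KO above WT without being called (0.40 ± 0.15, adjusted p = 0.103). None of the 7 genes of the family that rose passed without KO 1 (adjusted p = 0.0603 to 0.146, edgeR). Their log2 fold changes were then 0.47 to 1.08, against 0.48 to 1.15 with all libraries. Ugt2b34 passed only without WT 3 among the 6 fits with a library left out, Ugt2a3 only without WT 2 or KO 3, and Ugt3a1 without WT 1, WT 2 or KO 2. With library totals alone, Ugt2b34 and Ugt3a1 had adjusted p = 0.0822 and 0.0511.

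Of 8 tested sulfotransferases, 3 rose. Sult2a8, a bile acid sulfotransferase of mouse liver, had 624, 727 and 492 CPM in KO, against 256, 384 and 313 CPM in WT (0.95 ± 0.20, adjusted p = 0.0178, edgeR). Sult1b1, which acts on thyroid hormone and phenols, had 22.7, 26.3 and 20.4 CPM in KO and 10.8, 9.66 and 11.6 CPM in WT (1.11 ± 0.14, adjusted p = 0.00384, edgeR). Sult1d1, a catecholamine sulfotransferase, had 148, 130 and 153 CPM in KO and 120, 81.9 and 81.5 CPM in WT (0.60 ± 0.18, adjusted p = 0.0452, edgeR). The 3 are unique in sequence among the members, sharing 0% of their 31-base words.

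Sult1a1, the phenol sulfotransferase and second most abundant of the family, had 263, 234 and 307 CPM in KO and 239, 231 and 205 CPM in WT, with overlap (0.25 ± 0.15, adjusted p = 0.252, edgeR). Sult1e1, which inactivates estrogens, had 15.7, 4.16 and 31.3 CPM in KO and 6.53, 5.94 and 2.36 CPM in WT (1.79 ± 0.71, adjusted p = 0.119). Its KO values spanned 7.52-fold. Without KO 2 it passed (adjusted p = 0.0431, edgeR). Sult1c2 had KO above WT near 1 CPM (1.13 ± 0.36, adjusted p = 0.0584).

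Sult1b1 passed in all 6 fits with a library left out. Sult2a8 did not pass without KO 1, KO 2 or WT 1 (adjusted p = 0.0751, 0.0539 and 0.0514, edgeR), and Sult1d1 passed only without WT 1 (up to 0.143 otherwise). Sult1d1 also missed with upper-quartile factors and library totals alone (0.0621 and 0.0696). Near the threshold, Gstm1, Gstm3 and Sult1d1 lay just inside and Ugt2b38, Gstt3 and Sult1c2 just outside.

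The 20 untested members had at most 24 counts over the 6 libraries, and 6 of them had 0 in every library. They are Sult2a1 to Sult2a6, Sult3a1 and Sult3a2, of which Sult2a1 and Sult3a1 are female-predominant in mouse liver, and Gsto2, Gstt4, Mgst2, Ugt1a2, Ugt1a8, Ugt2a1, Ugt2a2, Sult1c1, Sult2b1, Sult4a1, Sult6b1 and Sult6b2.

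Summed over all members, the families differed in how the rise of single genes reached the total. The glutathione family summed to 12887.5, 14235.3 and 11564.8 TPM in KO, against 10357.7, 12589.4 and 12495.7 TPM in WT, with overlap and a ratio of 1.09. Gstp1 and Mgst1 made up 35.6% and 34.0% of that level. Without these 2 genes the sum was 4572.9, 4170 and 5374.9 TPM in KO and 2702.5, 2945.8 and 2713.8 TPM in WT, a ratio of 1.69 with every KO library above WT. Neither of the 2 was called and both were set aside after their values were seen. The remainder held all 14 genes that rose, so its higher ratio follows in part from this choice. Gstp1 supplied 29.2% of the family's TPM in KO and 42.7% in WT, and Gsta3 11.2% and 6.07%.

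The glucuronic acid family summed to 2648.6, 2585.2 and 2560.1 TPM in KO and 2043.4, 1981.2 and 2320.2 TPM in WT, a ratio of 1.23 without overlap. The sulfate family summed to 966, 928.1 and 1009.9 TPM in KO and 666.3, 685 and 688.7 TPM in WT, a ratio of 1.42 without overlap. Sult2a8 supplied 49.9% of the sulfate family's TPM in KO and 40.6% in WT, while Sult1a1 supplied 34.5% and 45%. Sult2a8, which rose, was likewise set aside after its values were seen. Without Sult2a8 the sulfate sums overlapped in TPM, with a ratio of 1.20, while in CPM every KO sum lay above every WT sum, with a ratio of 1.34. TPM shares are relative to all transcripts, including the mitochondrial ones that differed between the groups, and with mitochondrial and hemoglobin genes left out the ratios were 1.17, 1.31 and 1.52 for glutathione, glucuronic acid and sulfate.

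**Figure D3:**
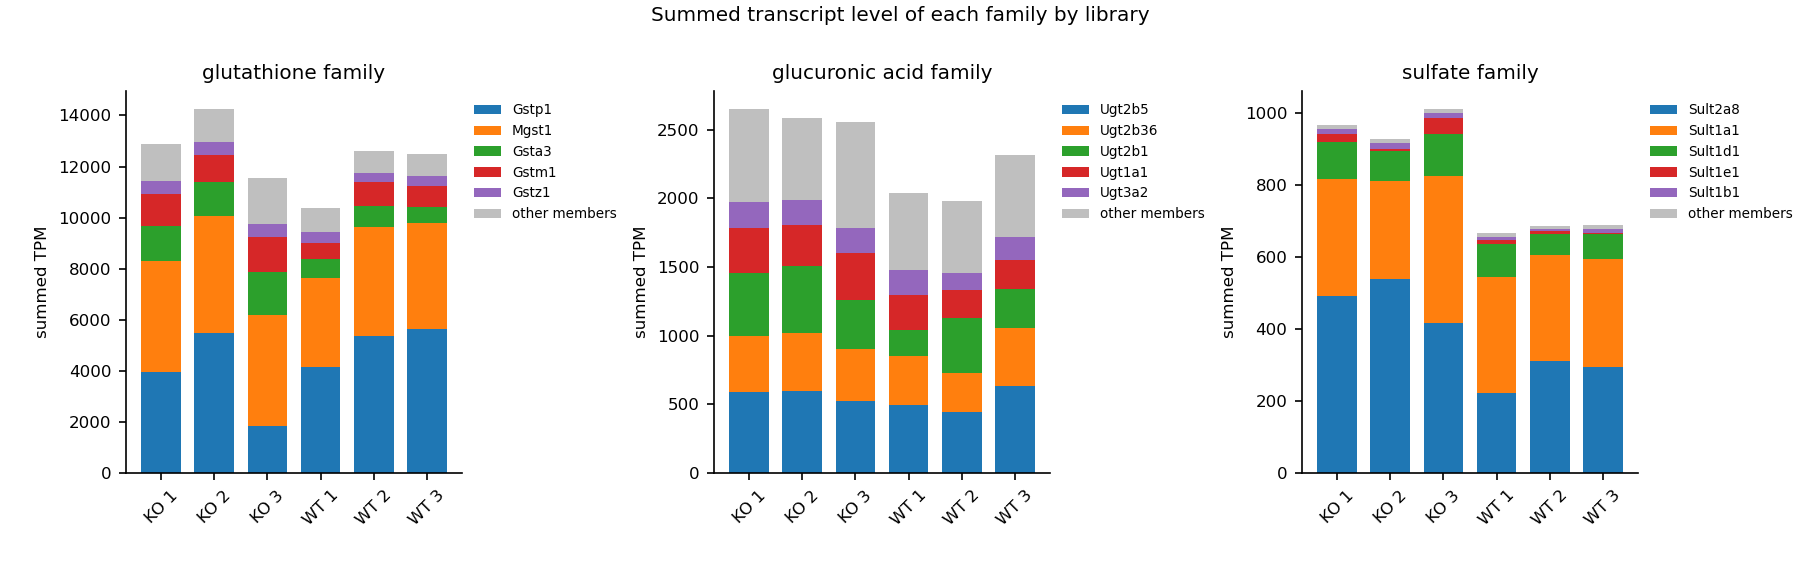
Summed TPM of each family in each library, KO libraries left of WT, stacked by the 5 most abundant members and the rest. Gstp1 (lowest segment, 1833.7 TPM in KO 3) and Sult2a8 show the unequal changes behind the totals.

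Within the KO group, Sult1e1, Ugt1a5, Gstp1, Gsta2 and Gstt3 had the widest spread. Ugt1a5 spanned 3.14-fold in KO and more, 4.35-fold, in WT, and was not called (1.16 ± 0.59, adjusted p = 0.207, edgeR). KO 3 was the highest KO library for Sult1e1, Ugt1a5, Gsta2 and Gstt3 and the lowest for Gstp1. The male-predominant gene Selenbp2 had 1062.2, 1790.3 and 184 CPM in KO, lowest in KO 3, against 267, 1239.1 and 1152.9 CPM in WT. The female-predominant gene Cyp2b9 had 147, 0 and 251 counts in KO and 7, 0 and 2 in WT. Both were chosen after their values were seen. They did not mirror each other throughout. KO 1 had 147 Cyp2b9 counts beside 1062.2 CPM of Selenbp2, and WT 1 had 7 beside 267 CPM. The list counts that follow compare KO with WT and do not show the place of KO 3. Of 13 male-predominant genes, 3 of them members, 2 rose (15.4%, beside 9.8% of all genes tested). The 13 had 9 positive and 4 negative log2 fold changes. Of 13 female-predominant genes, also with 3 members, 4 could be tested, 3 of them positive and 1 negative. Of these 4, edgeR and limma voom called 0 and DESeq2 called 1 higher and 1 lower, beside 13.5% and 12.3% of all genes. At an unadjusted p under 0.05 (edgeR) there were 2 higher and 1 lower. The part of these genes in the spread was not tested.

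**Figure D4:**
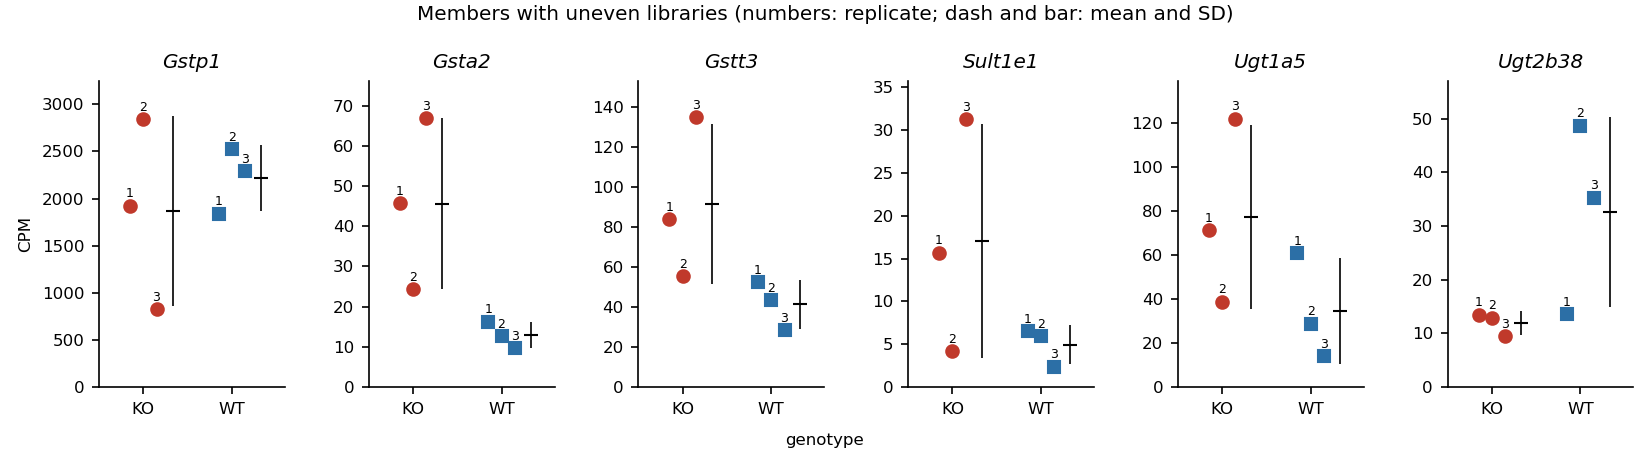
CPM by library, KO left of WT, with the mean and SD beside each group, for the 5 members with the widest KO spread and Ugt2b38, chosen after their values were seen. KO 3 is the lowest KO library for Gstp1 (827 CPM) and the highest for Sult1e1 (31.3 CPM), and WT 1 lies beside the KO libraries for Ugt2b38.

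Genes that make the co-substrates were read from the same fit. In glutathione supply, 3 of 21 tested genes rose (14.3%) and 1 fell (4.76%), the rises being close to the 9.8% over all genes. Cth, which makes cysteine from cystathionine, had 544, 515 and 528 CPM in KO and 358, 214 and 192 CPM in WT (1.05 ± 0.23, adjusted p = 0.0193, edgeR). Glrx and Lap3 rose by 0.65 and 0.49 and the 5-oxoprolinase Oplah fell by 0.87 on the log2 scale. The subunits of the rate-limiting enzyme of glutathione synthesis were not called, with Gclc at 0.35 ± 0.32 and Gclm at 0.20 ± 0.15.

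For UDP-glucuronic acid, 5 of 14 genes rose (35.7%) and 0 fell, and 0 were lower at an unadjusted p under 0.05 or with DESeq2 or limma voom. Ugp2, which makes UDP-glucose, had 284, 316 and 239 CPM in KO and 134, 158 and 163 CPM in WT (0.88 ± 0.15, adjusted p = 0.00915, edgeR). Rgn and Gulo, which carry glucuronate on towards ascorbate in mice, rose by 1.06 and 0.69, and Pgm2 and Pgm1 by 0.59 and 0.36. Ugdh, which oxidises UDP-glucose to the glucuronosyl donor, was not called (-0.24 ± 0.13). For sulfate, 2 of 15 genes rose (13.3%, again close to all genes), the sulfite oxidase Suox (0.67 ± 0.11) and the PAPS transporter Slc35b3 (0.49 ± 0.13). The PAPS synthase Papss2 had KO above WT without being called (0.72 ± 0.27, adjusted p = 0.0979, edgeR). Of 17 conjugate transporters, 3 rose (17.6%) and Abcc5 fell. Among those that rose were Abcb1a, an exporter of lipophilic drugs, and Slco2b1, which takes up organic anions into the cell.

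Among 21 tested regulators, 8 rose (38.1%) and 2 fell (9.52%), beside 9.8% and 10.6% of all genes tested. Nfe2l2, which encodes Nrf2, had 83.6, 73.4 and 93.9 CPM in KO and 32.3, 31.8 and 33.8 CPM in WT. The genes of its small Maf partners, Mafk and Maff, rose by 1.40 and 2.94, and Ahr, the aryl hydrocarbon receptor, by 1.17. Bach1, a repressor at the same sites, also rose (1.66 ± 0.23). Rxra, the partner of CAR and PXR, was among those that fell, by 0.61. The CAR gene Nr1i3 ranged from 40.9 to 59.5 CPM in KO and from 14.1 to 130 CPM in WT. Of 19 Nrf2 marker enzymes outside the 3 families, 6 (31.6%) rose (Hmox1, Srxn1, Cbr1, Aox1, Osgin1 and Aldh1a1) and 0 fell. In this list 1 was lower at an unadjusted p under 0.05 and with DESeq2 (12.3% of all genes) and 0 with limma voom (9.99%). Several of the 19, Gclc and Gclm among them, are also counted in the glutathione supply list. Nqo1 was not called (0.47 ± 0.38). Among 19 other conjugation enzymes tested, 6 rose (31.6%) and Nnmt, which methylates nicotinamide, fell by 1.26. Nat8, which acetylates the cysteine conjugates that derive from glutathione conjugates, had 24.8, 27.1 and 24.6 CPM in KO and 13.4, 6.71 and 6.25 CPM in WT (1.54 ± 0.28, adjusted p = 0.0122, edgeR). Gclc, Gclm, Ugdh, Papss2, Nr1i3, Nqo1, Bach1, Rxra, Pgm1, Osgin1 and Aldh1a1 were named after their values were seen.

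**Figure D5:**
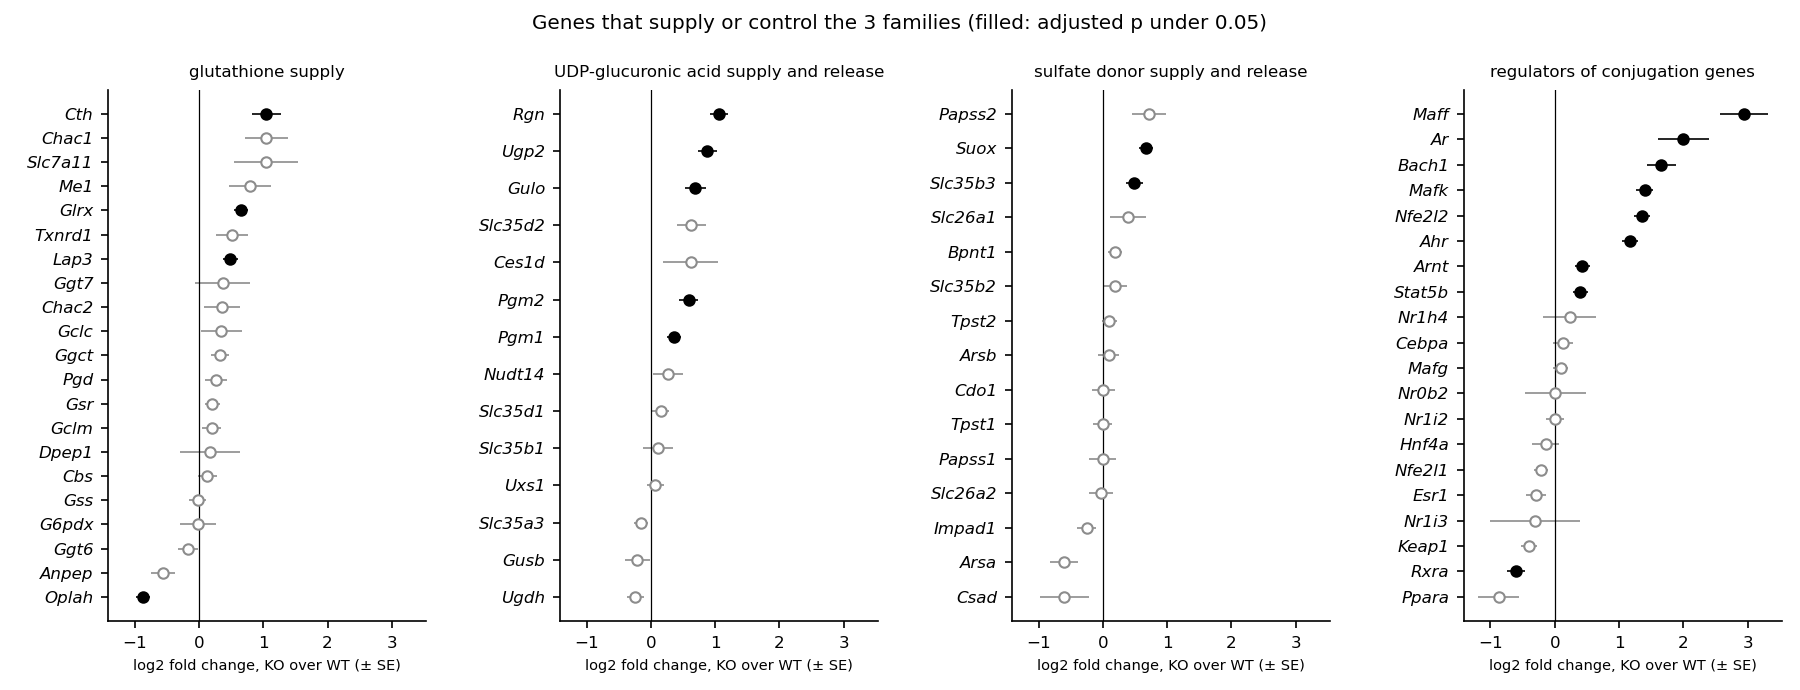
Log2 fold change, KO over WT, with standard error, for genes that supply each co-substrate and for regulators. Filled points passed an adjusted p of 0.05, and not every gene of the lists is drawn. Maff is farthest right at 2.94, and Gclc and Ugdh are open.

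Markers of some other cell types differed beside these genes, where 9.8% of all genes tested rose and 10.6% fell. EdgeR and limma voom called 0 of 6 stellate cell, 0 of 4 tested neutrophil and 0 of 1 tested B cell markers. DESeq2 called 2 stellate cell markers lower (12.3% of all genes fell with DESeq2), and 3 were lower at an unadjusted p under 0.05 (edgeR). Of 6 Kupffer cell markers, 3 (50%) fell (Clec4f, Cd5l and Vsig4), with summed levels of 29.5 to 34.9 TPM in KO and 58.5 to 154 TPM in WT. Of 5 tested cholangiocyte markers, 2 (40%) rose (Krt19 and Epcam), at 104 to 340 TPM in KO and 94.2 to 102 TPM in WT. All 4 erythroid markers rose, at 2035 to 3118.1 TPM in KO and 690 to 1084.8 TPM in WT. No marker of these 3 lists was at 0. Of 4 tested T cell markers, 1 rose (Cd3g), at 3.02 to 3.92 TPM in KO and 1.26 to 1.47 TPM in WT. Of 6 sinusoidal endothelial markers, 1 fell (Stab1), at 47.6 to 76.6 TPM in KO and 73.8 to 85.8 TPM in WT. Of 3 tested pancreas or gut markers, Cela1 and Fabp2 rose and Lgals4 fell, at 103 to 115 TPM in KO and 44.5 to 85.6 TPM in WT, and Prss2 of that list had 0 counts in KO and at most 1 in WT. Pericentral genes, a zone where many conjugation enzymes are expressed, had 4 of 13 higher (30.8%) and 1 lower (7.69%). Ahr, which rose, is counted both here and among the regulators. Their log2 fold changes were 9 positive and 4 negative, with a median of 0.38. They summed to 5959.4 to 7301.7 TPM in KO and 3979.6 to 5119.3 TPM in WT. Cyp2e1 had 3635.5, 3687 and 3788.5 CPM in KO and 1580.1, 1850 and 2265.3 CPM in WT. Periportal genes had 1 of 12 higher and 1 lower (8.33% each), with 6 positive and 6 negative log2 fold changes and a median of 0.04. They summed to 3908 to 4694.6 TPM in KO and 5481 to 6380.1 TPM in WT. The zonal sums did not overlap between the groups, the pericentral one being higher and the periportal one lower in KO. A sum follows its most abundant genes, and the periportal genes as a list did not shift in 1 direction. The part of these differences in the family results was not tested.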

How the data were processed

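Poly(A) RNA of 6 mouse liver samples was measured. The authors deposited expected counts, estimated per gene and not always whole, and per the submitters' processing notes used Trim Galore, STAR and Salmon with GRCm38; the sources used here give no versions or settings. Samples were grouped by their titles. The members and the related lists were chosen with earlier results of these data known.

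Counts were rounded to whole numbers and fitted with edgeR 4.0.16 in R 4.3.3 (filterByExpr, TMM, robust quasi-likelihood test, two-sided, genotype as the only term), with Benjamini-Hochberg adjustment over 14069 genes and a threshold of 0.05. The common dispersion was 0.0461. Standard errors are the size of each log2 fold change over the root of its F statistic. TPM used the longest protein-coding transcript of GENCODE M21. Of 45706 genes, 45143 matched a symbol. Shared sequence between members was counted in 31-base words. Library pairs within a group differed by 34.9 to 141.1 times counting noise, so no pair was counted as 1 library deposited more than once. Named were all members called, the most abundant of each subfamily, members with an unadjusted p under 0.05 or no overlap, and up to 4 genes of each related list, beside others that the report says were chosen after their values were seen. The script was tested on simulated data. Alternatives tried were scaling by RLE, by upper quartiles or by library totals, no filter, a stricter filter (at least 1 CPM in 3 libraries), DESeq2 1.42.0, limma voom 3.58.1, leaving out each library or the mitochondrial and hemoglobin genes, a replicate block, and a length trend removed by lowess (span 0.5), the last chosen after seeing the data. An exact permutation test of 3 against 3 cannot go below p = 0.1. Strand was not stated to be used in counting, so overlapping genes are uncertain. Some genes of the related lists are counted but not named, and 1 of the promoter motifs searched is not reported here.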

Additional observations from a re-analysis of the deposited data

How the results depend on the processing

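Of all genes, 1379 rose and 1492 fell. With 1 library left out, between 385 and 1390 rose and between 218 and 1690 fell, lowest in both directions without KO 1. Members higher ranged from 7 to 14 in the glutathione family, 0 to 7 in the glucuronic acid family and 1 to 3 in the sulfate family, and glucuronic acid members lower from 0 to 1. Same-numbered KO and WT samples showed no shared deviation from their group means (correlations -0.0762, 0.0126 and -0.0853). Differently numbered pairs ran from -0.118 to 0.1644. These values do not show whether samples were collected in pairs. With the replicate block 807 genes rose and 661 fell, and 12, 5 and 2 members of the glutathione, glucuronic acid and sulfate families rose. In the glucuronic acid family 1 member fell with upper-quartile factors, the stricter filter, DESeq2 and the length trend removed. With library totals alone 2 fell. The shares of all genes lower in these fits were, in the same order, 12.4%, 11.7%, 12.3%, 9.17% and 11.2%. The ratios of summed level were 1.28, 1.37 and 1.62 in CPM in place of TPM, for glutathione, glucuronic acid and sulfate, and the sulfate ratio was 1.52 without mitochondrial and hemoglobin genes. Signs of uncalled genes turned in some fits. Ugt1a10 had -0.03 with upper-quartile factors, -0.07 with library totals alone and limma voom, -0.06 with the replicate block, -0.0033 with the length trend removed, and from -0.33 to -0.0034 without WT 2, WT 3, KO 2 or KO 3 (up to 0.31 without KO 1). Gsto1 had -0.02 with library totals alone, -0.07 with the length trend removed and -0.04 to 0.14 with 1 library left out. Gstp1 ran from -0.69 (without KO 2) to 0.11 (without KO 3). Sult5a1 ran from -0.18 to 0.34 with 1 library left out. The causes were not tested. For the 20 untested members, with at most 12 counts in a library, a difference was not detectable at this depth.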
